A study of Ictidomys tridecemlineatus with 15 samples.

Results

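The genes described here encode liver enzymes that break down tyrosine, tryptophan, histidine and serine. They were measured by global run-on sequencing (GRO-seq), in which isolated nuclei extend transcripts that had already been started, so that the reads mark polymerases engaged on each gene, in liver of the 13-lined ground squirrel, a seasonal hibernator. The members were 9 names chosen by pathway (Tat, Tdo2, Hpd, Hgd, Fah, Kynu, Kmo, Hal and Sds). They were chosen with earlier results of these data known, so their counts beside all units are a description. Of the 9 names, 8 matched a transcription unit of the deposited table of 6324 units. Hpd matched none and is not analysed here. Of the 8, 7 had a unit of their own, and Tdo2 was counted in a unit merged with an unnamed annotation (G11205:Tdo2), so reads of that unit cannot be assigned to Tdo2 alone.

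All animals were laboratory-housed females, 1 animal per library. SA animals (summer active, n = 3) were warm, had food and were taken before the hibernation season. IBA animals (interbout aroused, n = 3) were winter hibernators that had rewarmed between torpor bouts. Ent animals (entrance, n = 3) were cooling into a bout, and ET and LT animals (early torpor, n = 3, and late torpor, n = 2) were cold, near the start and the end of a bout. The winter animals were fasting in a cold dark room, so season, feeding, housing and hibernation state change together between SA and every other group. The collection seasons also differed between groups. All ET livers came from the second season, both LT livers from the first and all IBA livers from the third, while SA and Ent each mixed the first and the third season. The remaining LT sample is not analysed here.

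These enzymes belong to short chains that feed amino acid carbon into central metabolism. Tat removes the amino group of tyrosine, Hpd makes homogentisate from its product, Hgd opens the aromatic ring, and Fah makes the last cut, which gives fumarate and acetoacetate. Tdo2 commits tryptophan to the kynurenine route, along which Kmo and Kynu act. Hal starts histidine breakdown, and Sds turns serine into pyruvate and ammonia. In mammalian liver, Tat, Tdo2 and Sds are textbook examples of genes that respond to glucocorticoids, glucagon or feeding.

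In assembly HiC_Itri_2, the units lay on 8 different chromosomes. Tat covered chr16:37379767-37398393 on the minus strand, Hgd chr7:130163269-130212684 on the plus strand and Fah chr5:120292886-120326768 on the plus strand. The merged Tdo2 unit covered chr15:36943825-37008737 on the minus strand, Kmo chr9:45819585-45874958 on the plus strand and Kynu chr6:107813092-107989526 on the plus strand. Hal covered chr4:24157776-24181968 on the plus strand and Sds chr2:148700956-148714218 on the minus strand. Each unit is a gene body, introns included, without its first 500 nt. For part of the genes the authors extended it past the annotated end by transcribed segments.

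The libraries held 3713883 to 8884763 counts on units. No member fell below 37 reads in any library, a value reached by Sds, and the other 7 had at least 400 reads in each. Levels are given as counts scaled to a common library size (CPM, the edgeR unit), which are shares of each library's reads and not amounts per cell. Tissue markers were partly covered by the table. Of 10 hepatocyte markers 8 had a unit, and they summed to 13790 to 24440 CPM in the SA libraries, 14790 to 21010 in IBA, 11440 to 13760 in Ent, 5477 to 9706 in ET and 6851 to 10510 in LT. Of the markers of other liver cells, 1 of 8 for Kupffer cells (Cd68, in a merged unit), 3 of 8 for endothelium, 0 of 8 for stellate cells, 1 of 6 for cholangiocytes (Sox9) and 0 of 6 for leukocytes had a unit. In torpor minus SA, on the log2 scale used below, Sox9 was at -1.54 (SE 0.28, adjusted p = 0.00053) and Cd68 at -0.16 (SE 0.24, adjusted p = 0.57). The 3 endothelial units had a median of -0.57 with 1 called lower (Kdr, -0.87, SE 0.21, adjusted p = 0.0031), beside 29.9% of all units lower. Fewer hepatocyte nuclei and less transcription per nucleus cannot be told apart in these data.

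Taken as a sum, the 8 units held 7378 ± 1228 CPM in SA (SD, n = 3), 4433 ± 376 in IBA (n = 3), 3705 ± 720 in Ent (n = 3), 1780 ± 327 in ET (n = 3) and 1801 ± 390 in LT (n = 2). The winter means were therefore 60.1%, 50.2%, 24.1% and 24.4% of the SA mean. Tat was the largest part of the SA sum, with a mean of 2556 CPM, and held 157 CPM in ET. The sum fell less than Tat did, and single members in ET ranged from 6.1% (Tat) to 71.6% (Fah) of their SA mean. The sums of the 5 torpid libraries (1525 to 2158 CPM) lay below those of every SA, IBA and Ent library, of which the lowest was 3230 CPM.

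**Figure D1:**
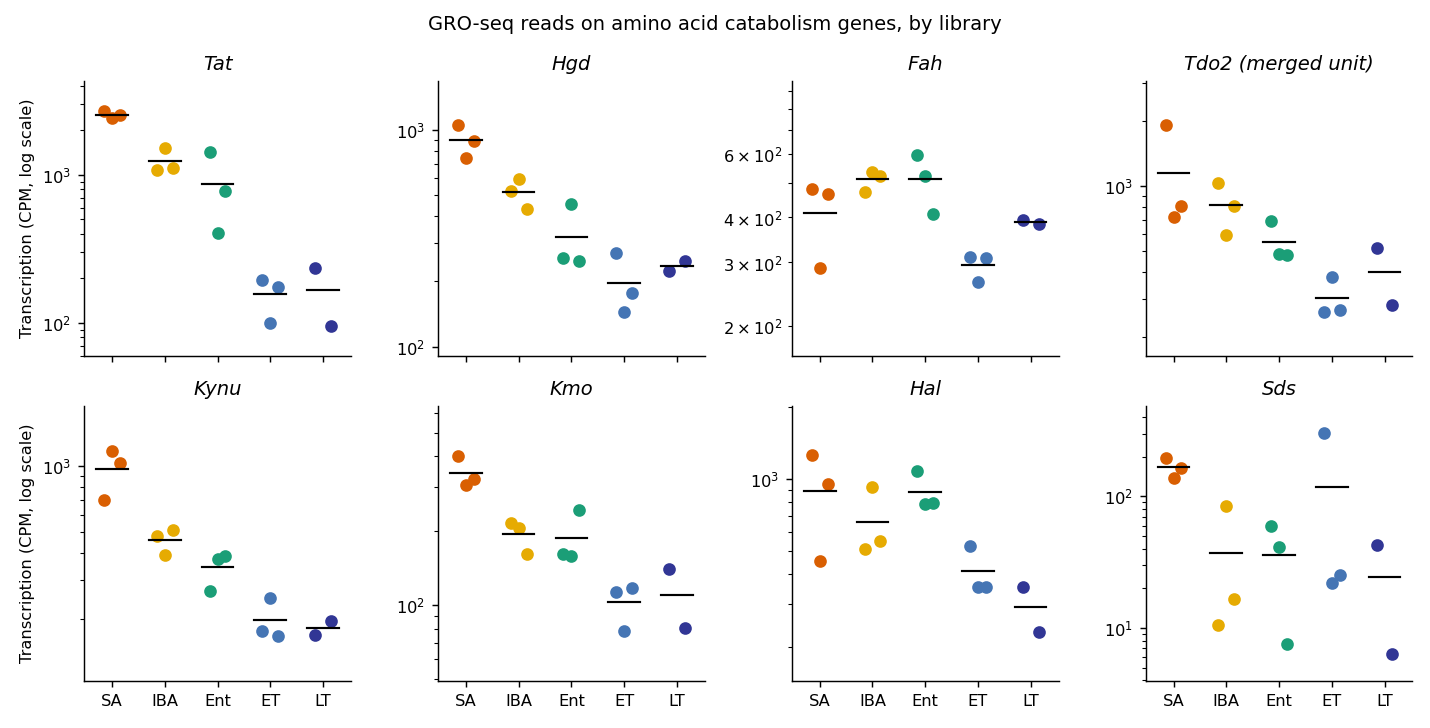
GRO-seq level of each gene in CPM on a log axis (each panel has its own range) in the SA, IBA, Ent, ET and LT libraries; points are libraries and bars are state means. Tat falls from 2414 to 2694 CPM in SA to 95.7 to 235 CPM in the torpid livers, Fah stays between 264 and 598 CPM, and 1 ET library stands at 303 CPM for Sds.

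Transcription of 6 of the 8 units was lower in torpid liver (mean of ET and LT, given equal weight) than in SA at an adjusted p of 0.05 or less: Tat, Kynu, Hgd, Tdo2, Kmo and Hal. None was higher. By the same test 29.9% of all 6324 units were lower and 57.3% differed in either direction. Adjusted p-values throughout are from the quasi-likelihood F-test of edgeR (Benjamini-Hochberg procedure, all units together), and changes are log2 fold changes with a standard error (SE). The SE was derived from that test, as the size of the log2 change over the square root of F. The median change of the 8 units was -1.71, beside -0.05 for all units. The study used an adjusted p of 0.001, with DESeq2. At that threshold, by the edgeR test used here, 5 of the 8 were lower, all but Hal of the 6, beside 14.3% of all units. Across all 5 states together, 7 of the 8 differed, all but Sds, beside 62.0% of all units, and 4 at an adjusted p of 0.001 (Tat, Hgd, Kynu and Kmo), beside 25.5%.

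Tat, the first and rate-limiting step of tyrosine breakdown, had the largest decrease of the 8. Its 3 SA libraries held 2694, 2414 and 2559 CPM, its IBA libraries 1083, 1520 and 1119 CPM, and its Ent libraries 1423, 405 and 781 CPM. The ET libraries held 194, 100.4 and 176 CPM, and the LT libraries 235 and 95.7 CPM. No library of any winter state reached the lowest SA value, and no torpid library reached the lowest Ent value. The fitted decrease from SA to torpor was 15.9-fold (log2 change -3.99, SE 0.39, adjusted p = 6.4e-06). From Ent to ET the level fell 5.55-fold (log2 change -2.47, SE 0.44, adjusted p = 0.0018), and IBA stood 7.50-fold above LT (log2 change 2.91, SE 0.52, adjusted p = 0.00068). The drop from SA to IBA was 2.06-fold and did not pass (log2 change -1.04, SE 0.42, adjusted p = 0.17), although the libraries did not overlap. Ent was lower than SA (-1.56, SE 0.42, adjusted p = 0.021), a call that ended without Ent replicate 2 (adjusted p = 0.062), without Ent replicate 3 (0.072), or with only the groups compared (0.063).

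Hgd, which opens the ring of homogentisate, declined in smaller steps. It held 1055, 742 and 895 CPM in SA, 522, 592 and 434 CPM in IBA, 258, 458 and 250 CPM in Ent, 272, 145 and 176 CPM in ET, and 224 and 249.8 CPM in LT. SA lay above all other libraries, while Ent overlapped both IBA and ET. Torpid liver was 4.15-fold below SA (log2 change -2.05, SE 0.24, adjusted p = 1.9e-05), Ent was 2.79-fold below SA (-1.48, SE 0.27, adjusted p = 0.0034), and IBA was 2.18-fold above LT (1.12, SE 0.31, adjusted p = 0.0096; 0.075 without LT replicate 1). Neither the step from SA to IBA (-0.80, SE 0.27, adjusted p = 0.11) nor that from Ent to ET (-0.70, SE 0.27, adjusted p = 0.067) passed. The latter passed in 4 of 21 alternatives, among them DESeq2 (adjusted p = 0.046) and upper-quartile scaling (adjusted p = 0.049), and was -0.34 without Ent replicate 2 (adjusted p = 0.35).

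Fah, the last enzyme of the same chain, did not follow Tat and Hgd in the comparisons with SA. It held 480, 289.9 and 464 CPM in SA, 472, 536 and 522 CPM in IBA, 598, 523 and 409 CPM in Ent, 311, 264 and 308 CPM in ET, and 395 and 384 CPM in LT. The torpid libraries overlapped those of SA. The difference between torpid liver and SA was -0.28 (SE 0.17) and did not pass (adjusted p = 0.17); without SA replicate 2, the lowest SA library, it was -0.48 and passed (adjusted p = 0.012). Fah was lower in ET than in Ent, 1.73-fold, with no overlap (log2 change -0.79, SE 0.19, adjusted p = 0.0087). The IBA and Ent means, 510 CPM each, were 124% of the SA mean, and neither difference from SA passed (0.31 with SE 0.19 for both, adjusted p = 0.37 and 0.25). IBA minus LT was 0.39 (SE 0.21, adjusted p = 0.15), and 0.79 with season as a covariate (adjusted p = 0.03).

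The ratio of 2 genes inside a library does not depend on how the library was scaled. The log2 ratio of Tat over Fah counts was 2.67 ± 0.34 in SA (SD, n = 3), 1.27 ± 0.21 in IBA (n = 3), 0.61 ± 0.86 in Ent (n = 3), -0.96 ± 0.38 in ET (n = 3) and -1.38 ± 0.89 in LT (n = 2). Hgd over Fah went from 1.15 ± 0.20 in SA to 0.01 ± 0.24 in IBA and -0.71 ± 0.51 in Ent, with ET at -0.62 ± 0.37 and LT at -0.72 ± 0.14. Between the 5 torpid and 3 SA libraries, the differences were -3.80 for Tat over Fah, -1.81 for Hgd over Fah, -1.99 for Tat over Hgd and 2.87 for Hal over Tat. The 7 ratios given here and below were not among the planned comparisons, so they are a description. Each of these 4 had no overlap and an exact permutation p of 0.0357 (two-sided), the lowest value possible with these group sizes. Of all single units, 48.3% did not overlap between torpid liver and SA, and that share was not computed for other pairs. None passed after adjustment over the 7 pairs compared (adjusted p = 0.0625). With that lowest value, the adjusted p depended on how many pairs reached it, and the pairs share genes. The adjustment therefore cannot decide whether a single ratio differed.

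**Figure D2:**
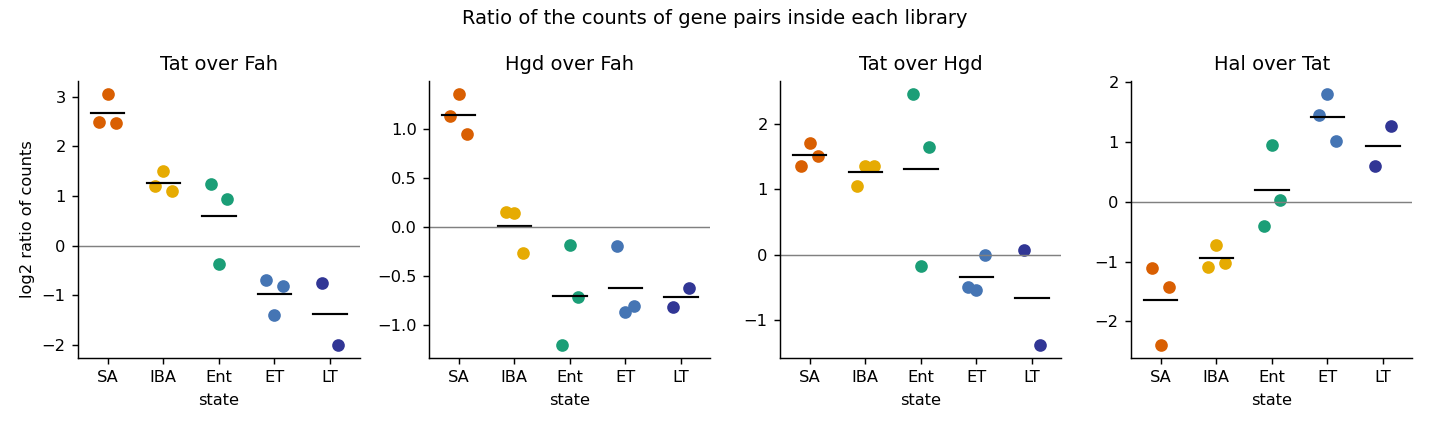
Log2 ratio of the counts of 2 genes in the same library for 4 pairs, by state; points are libraries, bars are state means, and the grey line marks equal counts. Tat over Fah is at 2.46 to 3.06 in SA and at -2.00 to -0.69 in the torpid libraries, and Hgd over Fah is below its SA values in every winter library.

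In the kynurenine route, all 3 measured members were lower in torpor. Tdo2, which opens the indole ring of tryptophan, was read from a merged unit and varied most in SA, with 1906, 718 and 810 CPM. It held 1037, 595 and 808 CPM in IBA, 692, 485 and 480.1 CPM in Ent, 263, 379 and 267 CPM in ET, and 517 and 282 CPM in LT. The torpid libraries lay below all SA and IBA libraries, while the higher LT library lay within the Ent range. The difference between torpid liver and SA was -1.72 (SE 0.32, adjusted p = 0.00062), which is 3.29-fold, and was -1.14 without SA replicate 1, still called. No other comparison of Tdo2 named here passed: -0.49 (SE 0.36, adjusted p = 0.48) for IBA minus SA, -1.05 (SE 0.37, adjusted p = 0.055) for Ent minus SA, -0.87 (SE 0.37, adjusted p = 0.094) for ET minus Ent and 1.03 (SE 0.42, adjusted p = 0.059) for IBA minus LT. The last passed in 9 of 22 alternatives, among them DESeq2 (adjusted p = 0.033) and season as a covariate (1.83, adjusted p = 0.0096), and Ent minus SA in 5 of 22, among them DESeq2 (adjusted p = 0.02). Both were smaller with another library left out, 0.65 for IBA minus LT without LT replicate 3 (adjusted p = 0.34) and -0.47 for Ent minus SA without SA replicate 1 (adjusted p = 0.28). Without SA replicate 1, the library at 1906 CPM, the IBA minus SA value turned to 0.090 (adjusted p = 0.89).

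Kmo, the hydroxylase that acts on kynurenine, held 399.9, 307 and 325 CPM in SA, 215, 205 and 161 CPM in IBA, 160.3, 158 and 243 CPM in Ent, 112, 78.6 and 118 CPM in ET, and 139.5 and 80.3 CPM in LT. All winter libraries were below SA, and all torpid libraries were below Ent. It was lower in torpor than in SA (-1.69, SE 0.21, adjusted p = 3.3e-05) and lower in Ent than in SA (-0.88, SE 0.24, adjusted p = 0.021). It was also lower in ET than in Ent (-0.86, SE 0.24, adjusted p = 0.018), and higher in IBA than in LT (0.81, SE 0.27, adjusted p = 0.026). The last of these rested on LT replicate 3, since it was 0.47 without it (adjusted p = 0.25). It also did not pass without IBA replicate 1 (0.07), without IBA replicate 2 (0.061), with uniquely mapped reads as library size (0.065) or with season as a covariate (0.17). Ent minus SA did not pass without SA replicate 1 (0.06), Ent replicate 1 (0.065) or Ent replicate 2 (0.083), or with only the groups compared (0.052), and ET minus Ent did not pass without Ent replicate 3 (0.075) or ET replicate 2 (0.067).

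Kynu, which cleaves the kynurenines, was the member with the smallest adjusted p and the only one called between the warm states SA and IBA. It held 698, 1180 and 1038 CPM in SA, 480.3, 392 and 509 CPM in IBA, 268, 376 and 388 CPM in Ent, 175, 249 and 166 CPM in ET, and 168 and 197 CPM in LT. SA, IBA, Ent and the torpid libraries followed each other without overlap. Torpid liver was 5.13-fold below SA (-2.36, SE 0.20, adjusted p = 2.6e-06), and Ent was 2.83-fold below SA (-1.50, SE 0.23, adjusted p = 0.0017). IBA was 2.11-fold below SA (-1.08, SE 0.22, adjusted p = 0.015) and 2.52-fold above LT (1.33, SE 0.26, adjusted p = 0.0012). With season as a covariate the adjusted p of IBA minus LT was 0.044, the highest of 22 alternatives. The IBA minus SA call ended without IBA replicate 1 (adjusted p = 0.053), 2 (0.066) or 3 (0.052), and with only the groups compared (0.064). ET was 1.75-fold below Ent (-0.81, SE 0.22, adjusted p = 0.018), which did not pass without ET replicate 1 (0.064) or 3 (0.07), or without Ent replicate 2 (0.061) or 3 (0.056). The ratios inside libraries of Tdo2 over Kynu, Tdo2 over Kmo and Kynu over Kmo differed between torpid liver and SA by 0.68, 0.08 and -0.60, with overlap in each (exact permutation p = 0.179, 0.893 and 0.179). For Tdo2 over Kynu the overlap came from SA replicate 1 alone, at 1.45 beside -0.72 and -0.36 in the other SA libraries and 0.52 to 1.62 in torpor, and the difference was 1.34 without it.

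Hal, the ammonia lyase that starts histidine breakdown, had close mean levels in SA and Ent and lower ones in torpor. It held 1255, 457 and 949 CPM in SA, 509, 924 and 550.2 CPM in IBA, 1074, 783 and 793.5 CPM in Ent, 527.5, 353 and 356 CPM in ET, and 355.5 and 230.4 CPM in LT. The means of SA (887 ± 403 CPM, SD, n = 3) and Ent (884 ± 165 CPM, n = 3) differed by less than their spread, and SA, IBA and Ent overlapped (IBA minus SA -0.42, SE 0.34, adjusted p = 0.52). ET was lower than Ent (-1.10, SE 0.35, adjusted p = 0.032), and IBA was higher than LT (1.18, SE 0.40, adjusted p = 0.027). Torpid liver was 2.55-fold below SA (-1.35, SE 0.30, adjusted p = 0.0022), although SA replicate 2 lay inside the ET range. ET minus Ent did not pass without Ent replicate 1 (0.11) or 2 (0.053), or without ET replicate 2 (0.094) or 3 (0.099), and IBA minus LT did not pass without LT replicate 3 (0.19) or IBA replicate 2 (0.10).

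Sds, the serine dehydratase, was the most variable member. It held 195, 139 and 164 CPM in SA, and 10.5, 84.7 and 16.6 CPM in IBA. Ent libraries held 59.8, 41.0 and 7.56 CPM, and LT libraries 42.8 and 6.33 CPM. In ET, replicate 1 held 303 CPM, above every other library, while replicates 2 and 3 held 22 and 25.4 CPM. With that library in, torpid liver minus SA was -1.63 (SE 0.93) and did not pass (adjusted p = 0.15); without it, the difference was -2.78 and passed (adjusted p = 0.0097), and 7 of the 8 members were called. It also passed by limma-voom with that library in (-2.42, adjusted p = 0.038). IBA minus SA was -2.15 (SE 1.10, adjusted p = 0.28) and Ent minus SA was -2.20 (SE 1.09, adjusted p = 0.16), neither of which passed although neither group overlapped SA. LT minus ET was -2.26 (SE 1.28, adjusted p = 0.69), and 0.049 without ET replicate 1.

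**Figure D3:**
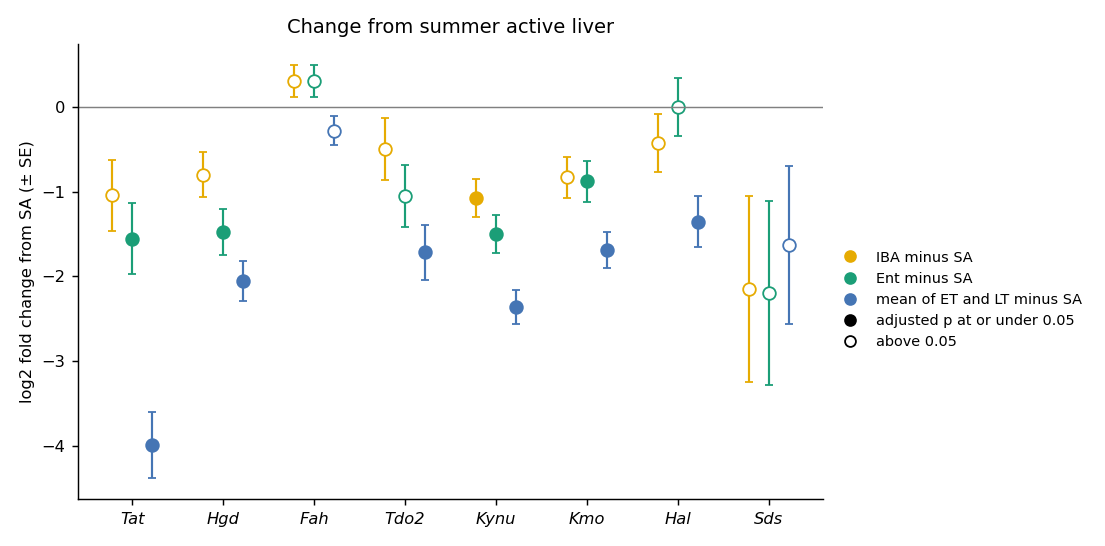
Log2 fold change from SA (± SE) of each gene in IBA, Ent and torpid liver (mean of ET and LT); filled points have an adjusted p at or under 0.05 and open points do not. Filled points number 1 for IBA (Kynu), 4 for Ent (Tat, Hgd, Kynu and Kmo) and 6 for torpid liver, and the 3 comparisons share the SA libraries.

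Between warm winter liver and summer liver, 1 of the 8 members was called (IBA minus SA, Kynu, lower), beside 5.22% of all units in either direction and 2.85% lower. DESeq2 called 3 members, adding Hgd (adjusted p = 0.043) and Kmo (adjusted p = 0.019). By edgeR, Kmo was at -0.83 (SE 0.24, adjusted p = 0.064). The median change of the 8 was -0.82, beside -0.02 for all units, and 5 members did not overlap between the groups, beside 27.9% of all units. Ent minus IBA gave 0 calls among the members by edgeR, DESeq2 and limma-voom, with 1 unadjusted p under 0.05 (Hgd, 0.025), beside 16.1% of all units called. The lowest change in that step was -0.68 (SE 0.27, adjusted p = 0.10), for Hgd, and the highest was 0.42 (SE 0.34, adjusted p = 0.43), for Hal.

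From Ent to ET, 5 of the 8 members were lower (Tat, Fah, Kynu, Kmo and Hal), beside 13.4% of all units lower and 28.8% in either direction. Between LT and ET, none was called by edgeR, DESeq2 or limma-voom, none had an unadjusted p under 0.05 (the smallest was 0.077, for Fah, with a change of 0.40 and SE 0.21), and 0.269% of all units were called. From LT to IBA, 5 of the 8 were higher (Tat, Hgd, Kynu, Kmo and Hal), beside 25.0% of all units higher and 49.8% in either direction. Ent minus SA called 4 of the 8, all lower, beside 11.7% of all units lower and 23.5% in either direction. At an adjusted p of 0.001, IBA minus SA, ET minus Ent and Ent minus SA called 0 members, beside 0.0158%, 2.21% and 0.775% of all units, and IBA minus LT called 1 (Tat), beside 17.4%.

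Where a season held both groups, the differences of mean log2 CPM were computed inside it, with no test since a group then has 1 to 3 libraries. In the first season, LT minus SA (2 libraries against 1) was -4.16 for Tat, -2.16 for Hgd, -0.30 for Fah, -2.32 for Tdo2, -1.94 for Kynu, -1.91 for Kmo, -2.13 for Hal and -3.52 for Sds. In the third season, IBA minus SA (3 libraries against 2) was -1.02 for Tat, -0.67 for Hgd, 0.47 for Fah, 0.06 for Tdo2, -1.27 for Kynu, -0.72 for Kmo, -0.05 for Hal and -2.60 for Sds. LT minus Ent in the first season (2 against 2) was -2.34 for Tat, -1.68 for Hal, and between -0.80 and -0.52 for Hgd, Fah, Tdo2, Kynu and Kmo. ET was the only state of the second season, so state and season cannot be told apart for it.

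Per kilobase of unit, Tat and Hal were the highest members. Unit lengths include any such extension past the gene end, and the length for Tdo2 is that of the merged unit. Over all libraries, Tat averaged 56.8 CPM per kb and Hal 26.9, at percentiles 99.7 and 99.0 of all units, and Kynu was lowest with 2.54 at percentile 52.3. In SA, Tat held 137 ± 7.53 CPM per kb (SD, n = 3), Hal 36.7 ± 16.7, Hgd 18.2 ± 3.16, Tdo2 17.6 ± 10.2, Sds 12.5 ± 2.12, Fah 12.1 ± 3.12, Kmo 6.21 ± 0.89 and Kynu 5.51 ± 1.40. Neighbours from Hgd down to Fah in that order, and Kmo and Kynu, differed by less than their spread. In torpor Tat lost its lead. Hal led in ET with 17.0 ± 4.13 CPM per kb, beside 8.41 ± 2.66 for Tat and 8.69 ± 0.78 for Fah, and in LT (n = 2) Hal held 12.1 ± 3.66, Fah 11.5 ± 0.22 and Tat 8.88 ± 5.29, within their spread of each other.

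The members' patterns across the 5 states were compared by the root mean square difference of their centred mean log2 CPM, as a description over 5 points that share libraries. Closest were Hgd and Kynu (0.19) and Tdo2 and Kmo (0.19), and farthest were Tat and Fah (1.48). Among the 4705 units with a single name, those nearest to Tat were G9665 (0.25), Gys2, the liver glycogen synthase (0.25), and LOC101963557 (0.28). The nearest to Hgd were Gramd4 (0.08), Nrg4 (0.09) and Npc1 (0.10), to Kynu Pde4b, LOC106144977 and Nrg4 (0.12 to 0.13), and to Kmo Gadd45b, Macrod1 and Cdk5rap3 (0.10 each). Fah was nearest to Cpn2, Ccdc141 and Znf239 (0.04 to 0.06), and Hal to Thpo, G23499 and Ccdc40 (0.07 to 0.09). No unit came closer to Sds than 0.38 (G31489, then G34581 and Slc7a2).

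Polymerases that read past the end of an upstream gene on the same strand would add reads to the next unit, so the neighbours were recorded. The nearest unit upstream of Fah, Zfand6, ended 8759 nt away on the same strand and was higher in torpor than in SA (0.83, adjusted p = 0.00034). Upstream of Hal, Lta4h ended 4713 nt away on the same strand and was lower (-0.70, adjusted p = 0.0038), as was Rabl3, 7742 nt upstream of Hgd on the same strand (-0.69, adjusted p = 0.0048). Tat had Marveld3 upstream, 34632 nt away on the opposite strand, also lower (-3.61, adjusted p = 4.1e-05). The part of such reads in the values of Fah, Hal and Hgd was not tested.

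The other measured genes of these pathways changed in both directions. Of 16 other units for tyrosine, phenylalanine and tryptophan (of 20 names), 11 were called in torpor minus SA, 9 lower and 2 higher, with a median of -0.86. For this list and those that follow, the shares of all units in that comparison were 57.3% called and 29.9% lower. Acmsd, which diverts the tryptophan route away from NAD synthesis, had the largest decrease of that list, from 123 ± 57.2 CPM in SA (SD, n = 3) to 11.2 ± 1.52 in ET (n = 3; change -3.59, SE 0.30, adjusted p = 2.5e-06), followed by the kynurenine aminotransferase Kyat3 (-2.19, SE 0.34, adjusted p = 0.00015). Haao, the step after Kynu, was at 0.47 (SE 0.20, adjusted p = 0.057), Gstz1, the isomerase between Hgd and Fah, at 0.12 (SE 0.19, adjusted p = 0.59), and Afmid, in a merged unit, at -0.16 (SE 0.25, adjusted p = 0.59). The 2 higher units were Aadat, merged with Mfap3l (1.09, SE 0.21, adjusted p = 0.00082), and Pcbd2, of pterin cofactor recycling (0.70, SE 0.13, adjusted p = 0.00072).

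For histidine, 4 of 6 other units were called, 3 lower and 1 higher. Hdc, which makes histamine, had the largest change (-4.29, SE 0.37, adjusted p = 3.1e-06), at 39.0 ± 10.9 CPM in SA and 1.77 ± 0.79 in ET. Of the steps after Hal, which were all in merged units, Uroc1 was higher (1.42, SE 0.29, adjusted p = 0.0011), Amdhd1 was lower (-1.14, SE 0.25, adjusted p = 0.0017), and Ftcd was at 0.66 (SE 0.32, adjusted p = 0.098). For serine, glycine and threonine, 13 of 18 units were called, 7 lower and 6 higher. Pipox, a peroxisomal oxidase of sarcosine and pipecolate (-3.63), and Gldc, of the glycine cleavage system (-2.54), had the largest decreases. Psat1, of serine synthesis (2.92), and Dao, which oxidises D-amino acids (0.93), had the largest increases, while Sdsl, the paralogue of Sds, was at 0.05 (SE 0.16, adjusted p = 0.78).

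Of 19 branched-chain amino acid units, 11 were called, 8 higher and 3 lower, with a median of 0.38. The number called was close to the share of all units (57.3% called, 29.9% lower). Mccc2, of leucine breakdown, rose from 85.1 ± 12.8 CPM in SA to 221 ± 22.7 in ET (change in torpor 1.45, SE 0.13, adjusted p = 3.9e-06), and Dbt, in a merged unit, rose by 1.33 (SE 0.19, adjusted p = 7.3e-05). Acadsb, a short branched-chain acyl-CoA dehydrogenase (-1.83), and the aminotransferase Bcat2, merged with Plekha4 (-0.89), had the largest decreases. Of the proline, glutamate and alanine genes, 8 of 12 units were lower and none higher, led by the ornithine aminotransferase Oat (-3.31) and the aspartate aminotransferase Got1 (-2.33). Of the sulfur amino acid genes, 5 of 12 were lower and none higher, led by Got1 and by the cysteine dioxygenase Cdo1, merged with Atg12 (-1.71). Of the 8 lysine units, 3 were higher, led by Aadat and Aass (0.89), and 3 lower, led by Pipox and Phykpl (-0.98). Over the 88 units of these lists, each counted once, 55 were called in torpor minus SA (62.5%, beside 57.3% of all units), 36 lower and 19 higher, with a median of -0.13.

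**Figure D4:**
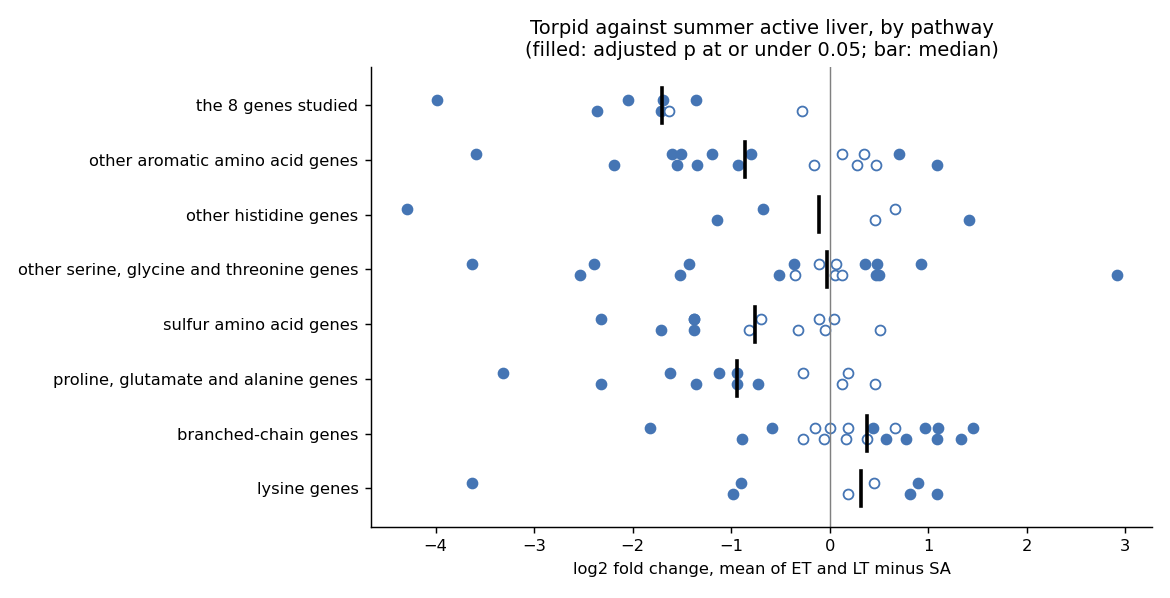
Log2 fold change between torpid liver (mean of ET and LT) and SA of every unit of each pathway list; filled points have an adjusted p at or under 0.05, and black bars are list medians. The 8 genes have a median of -1.71, the other aromatic amino acid genes -0.86 and the branched-chain genes 0.38.

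Of 8 hepatocyte marker units, 6 were lower in torpor, beside 29.9% of all units lower and 57.3% called in either direction. Among the 6 were Ttr (-2.20, adjusted p = 1.4e-05) and Alb in a merged unit (-1.33, adjusted p = 0.0069), while Apob was at 0.00 (SE 0.19). The part of these marker changes in the lower levels of the members was not tested.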

How the data were processed

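GRO-seq of frozen liver was deposited by the authors as raw read counts per gene body. Per the labels, nascent RNA was labelled in a nuclear run-on outside the animal at a single warm temperature. Counts therefore follow the polymerases engaged on each gene body when the liver was frozen. The study proposes that in torpor elongation goes on very slowly while initiation and termination cease. The part of this in the counts was not tested. Per the study's methods, reads were trimmed with cutadapt, mapped to HiC_Itri_2 with BWA and counted with featureCounts on gene bodies extended by transcribed segments, without the first 500 nt; overlapping genes were merged. Versions are not given in the sources used here.

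Counts of 14 libraries were scaled by TMM and fitted over all 6324 units in edgeR 4.0.16 (R 4.3.3), with state as the only term and no filter. CPM use TMM library sizes, and log2 CPM a prior count of 2. Each library has 3713883 to 8884763 counts. The fit was tested on simulated data first. Alternatives used DESeq2 1.42.0, limma 3.58.1 (voom), other scalings, a minimum of 10 counts, only the groups compared, the replicate number as a block, and fits that omit each library. A season term was used only in comparisons without ET. Permutation tests of the ratios were exact (scipy 1.17.1) and were not planned. All 8 members are named; of each pathway list, up to 2 called genes per direction by size are named, with the direct pathway neighbours (some are not reported here), and for each member with a unit of its own the 3 units of nearest pattern. The members and lists were chosen with earlier results of these data known. A planned promoter motif search was not run, and no sequence is given.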

Additional observations from a re-analysis of the deposited data

How the results depend on the processing

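All 21 called changes of single members kept their sign in all 451 alternative values, and the 6 members lower in torpor than in SA stayed called in all 21 alternatives each. A season term was not among those 21, since it was fitted only to comparisons without ET. Of 35 uncalled changes, 12 changed sign in at least 1 alternative, among them Tdo2 in IBA minus SA (-0.74 to 0.090 with 1 library left out, 0.090 without SA replicate 1) and Sds in LT minus ET (-4.21 to 0.049, 0.049 without ET replicate 1). Members called in IBA minus SA were 3 with DESeq2, 0 at an adjusted p of 0.001, and 0 to 2 with 1 library left out. At an adjusted p of 0.001 the count was 4 among the 5 states, 0 in ET minus Ent, 1 in IBA minus LT, 0 in Ent minus SA, and 28 for the other amino acid units in torpor minus SA. ET minus Ent gave 2 with a 2-fold minimum, and Ent minus SA gave 2 with only the groups compared. With 1 library left out, the counts were 0 to 1 in Ent minus IBA, 3 to 6 in ET minus Ent (3 without Ent replicate 2, ET replicate 2 or ET replicate 3), 3 to 6 in IBA minus LT (3 without LT replicate 3), 2 to 5 in Ent minus SA (2 without Ent replicate 2), 6 to 8 among the 5 states, 6 to 7 in torpor minus SA and 0 in LT minus ET. The summed level in IBA was 55.8% to 65.9% of SA with 1 library left out. With uniquely mapped reads as library size, the summed level in ET was 29.0% of SA, and the median of all units in torpor minus SA moved from -0.05 to 0.18, that of the members from -1.71 to -1.48. The cause was not tested. A prior count of 0.5 enters no summed level or test.

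The replicate numbers come from different animals and do not pair the libraries: 6 of 26 same-numbered pairs had a correlation of their deviations over 0.1 (-0.26 to 0.23), and 3 of 14 libraries correlated best with their own number. With a replicate block, 7 members were called among the 5 states, 1 in IBA minus SA, 0 in Ent minus IBA, 5 in ET minus Ent, 0 in LT minus ET, 6 in IBA minus LT, 5 in Ent minus SA and 7 in torpor minus SA.

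With 2 or 3 animals a state, the SE beside each value limits what was called; the members had 37 to 21535 reads a library. LT rests on 2 libraries.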

Other observations

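Of 11 units of genes that respond to glucocorticoids in mammalian liver, 6 were lower and 1 higher in torpor than in SA, where 29.9% of all units were lower and 57.3% were called in either direction. Igfbp1, a secreted binder of insulin-like growth factors, had the largest decrease (-3.96, SE 0.67, adjusted p = 0.00029), and Pck1, of gluconeogenesis, was lower too (-2.28, SE 0.38, adjusted p = 0.00025), while Klf9 was higher (0.57, SE 0.22, adjusted p = 0.037). The state means of Pck1 came in another order than those of Tat, although Pck1 was not called higher in IBA or Ent than in SA. Pck1 held 1041 ± 421 CPM in SA (SD, n = 3), 1539 ± 488 in IBA, 1716 ± 325 in Ent, 263 ± 149 in ET and 173 ± 0.65 in LT (n = 2). Of 16 hormone receptors and liver transcription factors, 7 were lower and 2 higher, a share of calls close to that of all units (57.3%). Foxa3, in a merged unit (-1.95), and Cebpa (-1.48) had the largest decreases, Foxo1 rose (1.34), and the glucocorticoid receptor Nr3c1, in a merged unit, was at 0.10 (SE 0.14, adjusted p = 0.59).

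Genes typical of both ends of the liver lobule were among those lower in torpor, beside 29.9% of all units lower. Of 8 periportal units, 5 were lower and none higher, led by Etnppl, in a merged unit (-4.21), and G6pc (-3.07). Of 7 pericentral units, 5 were lower and 1 higher, the lower ones led by Oat (-3.31) and Cyp1a2 (-3.15).

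The ET library with high Sds was compared with the other 4 torpid libraries in a check chosen after its values were seen. In ET replicate 1, 4 of 6324 units stood at least 4-fold above the highest of the other torpid libraries: Sds (303 against 42.8 CPM), the kinase gene Sik1 (153 against 27.6 CPM), Ass1 of the urea cycle (2278 against 520 CPM) and Cyp1a2 (257 against 61.1 CPM). Each of the other 4 torpid libraries had 0 such units.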
